A study of Mus musculus with 8 samples.

Results

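Transcripts of 34 mouse genes of glycolysis and of the hypoxia-inducible factor (HIF) response were followed in cultured kidney proximal tubule cells. With earlier results of these data known, the genes were chosen by symbol, as the glycolytic enzymes, their transporters and regulators, and known HIF targets. They were covered by 58 of the 39429 non-control probes on the array. Of these genes 33 were measured and tested among 14487 genes in all. The remaining gene, Mxi1, a transcriptional repressor that opposes MYC, had 1 probe, which was well above background on 0 of 8 arrays.

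The cells were primary cultures of tubules from the kidney cortex of male C57/BJ mice aged 6 weeks. After reaching confluence they were kept for 24 h in serum-free DMEM with either the vehicle DMSO (4 samples) or 1 μM GW4064 (4 samples). GW4064 is a man-made ligand that switches on FXR, a receptor in the nucleus that senses bile acids, and the comparison asked which transcripts it changed. The labels name no sample without FXR and none kept at low oxygen. RNA of each sample was labelled with Cy3 and hybridised to a one-colour Agilent array. Whether the 4 samples of a group were independent cultures, or came from different mice, is not given in the labels. The p-values therefore measure the spread between these samples alone, which may be technical.

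Glycolysis splits glucose into pyruvate in the cytosol, and lactate dehydrogenase and a monocarboxylate exporter carry the carbon on when it does not enter mitochondria. HIF is a pair of proteins that binds DNA when oxygen is low, because prolyl hydroxylases of the EGLN family otherwise mark its alpha subunit for destruction. It raises most glycolytic enzymes together with genes for mitophagy, blood vessel growth, pH control and collagen maturation. In the kidney the proximal tubule lives mainly on fatty acid oxidation and makes glucose rather than burning it, while tubule cells in culture are known to turn more to glycolysis.

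The bases before the start of several of these genes are shown because HIF binds a short core, ACGTG or GCGTG, that is common in promoters of its targets. Each sequence is the 250 bases upstream of a transcript start in RefSeq (build GRCm38.p6), 5′ to 3′ on the gene's strand. Capitals mark the core in either orientation, so that CACGT and CACGC are the reverse strand's ACGTG and GCGTG, and CACGTG is read on both strands. Slc2a1, Pfkfb3, P4ha2, Pgk1 and Slc16a3 are shown as genes that fell with GW4064, Pfkfb4 as the gene that rose, and Eno2 as a gene that fell without a core in this window. Pfkfb3 has 2 starts in the table, and both are given.
Slc2a1: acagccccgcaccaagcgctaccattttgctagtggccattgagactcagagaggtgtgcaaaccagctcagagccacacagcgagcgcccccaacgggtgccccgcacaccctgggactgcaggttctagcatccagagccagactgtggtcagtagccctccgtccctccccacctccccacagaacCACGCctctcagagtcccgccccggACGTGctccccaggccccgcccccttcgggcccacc
Pfkfb3 downstream start: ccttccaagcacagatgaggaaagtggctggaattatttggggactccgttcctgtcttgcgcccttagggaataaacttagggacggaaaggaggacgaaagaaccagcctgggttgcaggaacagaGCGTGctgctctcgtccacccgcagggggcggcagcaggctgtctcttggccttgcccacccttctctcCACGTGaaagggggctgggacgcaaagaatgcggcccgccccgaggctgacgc
Pfkfb3 upstream start: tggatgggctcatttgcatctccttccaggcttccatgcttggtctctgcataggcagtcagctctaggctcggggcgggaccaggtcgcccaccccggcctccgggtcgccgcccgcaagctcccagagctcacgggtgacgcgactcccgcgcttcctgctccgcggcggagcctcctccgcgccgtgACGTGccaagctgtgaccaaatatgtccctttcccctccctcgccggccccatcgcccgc
P4ha2: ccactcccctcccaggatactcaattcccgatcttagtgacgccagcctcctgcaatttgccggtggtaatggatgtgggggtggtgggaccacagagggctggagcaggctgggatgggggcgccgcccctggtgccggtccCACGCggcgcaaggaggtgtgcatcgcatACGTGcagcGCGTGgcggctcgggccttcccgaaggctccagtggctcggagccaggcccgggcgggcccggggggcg
Pgk1: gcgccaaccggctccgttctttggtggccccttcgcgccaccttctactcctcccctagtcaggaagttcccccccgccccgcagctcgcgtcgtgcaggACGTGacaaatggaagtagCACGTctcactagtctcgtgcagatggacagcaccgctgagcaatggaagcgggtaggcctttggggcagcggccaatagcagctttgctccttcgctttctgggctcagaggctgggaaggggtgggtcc
Slc16a3: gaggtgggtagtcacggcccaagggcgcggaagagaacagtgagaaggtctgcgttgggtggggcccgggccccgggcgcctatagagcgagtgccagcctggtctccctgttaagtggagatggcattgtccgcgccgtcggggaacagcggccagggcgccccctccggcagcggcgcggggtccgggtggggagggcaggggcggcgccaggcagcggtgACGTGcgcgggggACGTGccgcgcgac
Pfkfb4: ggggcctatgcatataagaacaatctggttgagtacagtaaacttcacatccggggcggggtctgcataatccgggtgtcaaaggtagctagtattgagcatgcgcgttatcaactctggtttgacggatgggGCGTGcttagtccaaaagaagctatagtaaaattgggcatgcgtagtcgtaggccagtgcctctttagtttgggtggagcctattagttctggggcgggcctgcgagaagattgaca
Eno2: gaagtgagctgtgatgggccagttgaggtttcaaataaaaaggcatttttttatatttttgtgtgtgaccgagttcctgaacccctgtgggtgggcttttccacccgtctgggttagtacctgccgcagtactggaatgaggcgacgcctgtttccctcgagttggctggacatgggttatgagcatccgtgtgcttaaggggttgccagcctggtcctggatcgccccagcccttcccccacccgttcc

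In the Slc2a1 sequence (chr4:119108495-119108744, plus strand) the cores began 61 and 36 bases before the start. In Pgk1 (chrX:106186850-106187099, plus strand) they began 150 and 131 bases before it, and in Slc16a3 (chr11:120948817-120949066, plus strand) 27 and 14 bases before it. P4ha2 (chr11:54100674-54100923, plus strand) held 3 cores upstream of its start, and Pfkfb4 (chr9:108991652-108991901, plus strand) held 1, which began 117 bases before it. The upstream start of Pfkfb3 (chr2:11553930-11554179, minus strand) had a core 60 bases before it, and the other start (chr2:11502091-11502340, minus strand) had 3 matches, of which 2 are the strands of the same CACGTG. Eno2 (chr6:124769674-124769923, minus strand) had 0.

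The table held 49 windows of 300 bases (250 before and 50 after a start) for 31 of the 34 genes, and none was listed for Bnip3l, Ndrg1 and Bhlhe40. A core was present in 37 of the 49 windows (75.5%), against 43.8% of all 32851 windows in the table. The genes were chosen partly as known HIF targets, so this contrast describes the list and is not a result of the arrays. The share was 76.2% (16 of 21 windows) for genes that fell with GW4064 and 18 of 24 windows for tested genes that did not pass. Counted by gene, a core was in 13 of 15 genes that fell (86.7%) and in 13 of 14 that did not pass (92.9%). The share was 46.7% of all genes in the table. Taken singly, ACGTG was in 13 of 21 windows (61.9%) of genes that fell and in 10 of 24 (41.7%) of those that did not pass, and GCGTG in 52.4% and 58.3%. These single cores were counted by window only, and genes with several windows weigh more. The differences between these shares were not tested. Windows of 1 gene can overlap, and the shares were not matched for base composition. The inverted repeat of AGGTCA with 1 base between its arms, a site that FXR can bind, was found in 0 of the 49 windows and in 3 of all windows. A match is a stretch of letters, and no binding was measured.

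Levels are given as log2 of the processed spot signal minus the 75th percentile of the array, always in the order of replicates 1 to 4, and differences are GW4064 minus DMSO on that scale with their standard error (SE, n = 4 arrays per group). A level depends on the probe, so levels rank arrays and not genes. A gene was called at an adjusted p under 0.05 in limma (Benjamini-Hochberg over all 14487 genes), and "fell" and "rose" are used only for called genes.

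Of the 33 tested genes 16 fell, 1 rose and 16 did not pass. Across all genes tested, 8.95% were called lower and 11.8% higher, so the 16 made 48.5% of these genes against a background of 8.95%. The difference was below 0 in 31 of 33, against 45.8% of all genes, and the median difference was -0.32, against 0.01 over all genes. The 4 GW4064 arrays lay wholly below the 4 DMSO arrays for 14 genes (42.4%), against 11.2% of all genes, and wholly above them for 1, against 15% of all genes. The genes were chosen with earlier results of these data known, so these shares describe them and are not independent support. The changes were small: the called falls ran from 1.13-fold for Higd1a to 1.81-fold for Slc16a3. In RNA of a whole culture, fewer cells of a type and less RNA per cell cannot be told apart.

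**Figure D1:**
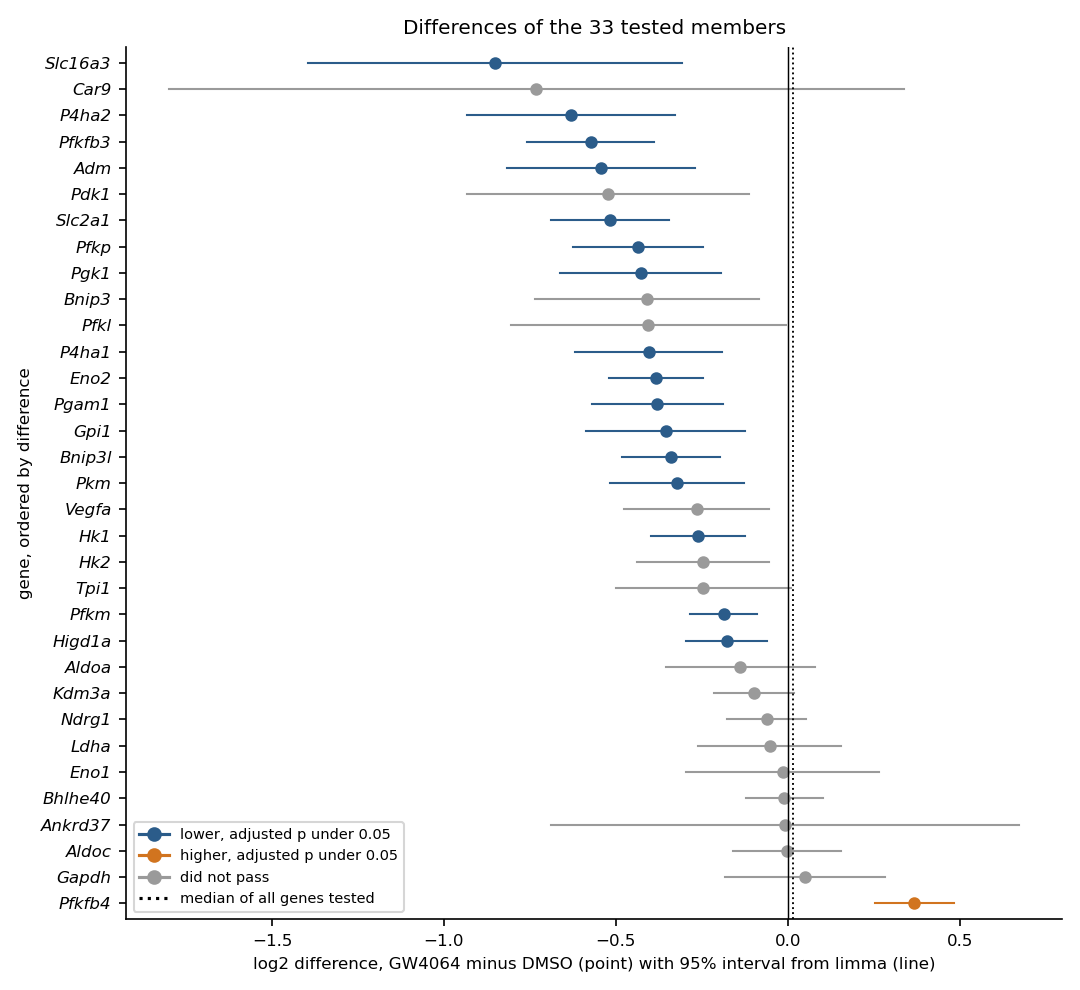
Log2 difference between GW4064 and DMSO for each of the 33 tested genes, ordered by size on the vertical axis, with its 95% interval from limma (4 arrays per group). Blue points are the 16 genes that fell, the orange point is Pfkfb4, which rose, grey points did not pass, and the dotted line is the median of all genes (0.01); Car9 and Ankrd37 have the widest intervals.

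All tested probes of these genes were well above background on 8 of 8 arrays, and none was saturated. The 75th percentile signal ran from 1478 to 1900 on the DMSO arrays and from 1203 to 1697 on the GW4064 arrays, with 62.1% to 66.3% of spots well above background. There were 2 slides with 4 arrays apiece, 2 from either group (replicates 1 and 2 on slide 1, replicates 3 and 4 on slide 2). DMSO samples took the first places and GW4064 samples the last, so place on the slide and treatment cannot be told apart. Among all genes tested 11.8% were called higher and 8.95% lower. Of 15 tested proximal tubule markers 11 rose and 2 fell. The mean level of these markers ran from 1.34 to 1.73 with DMSO and from 2.19 to 2.45 with GW4064. Leukocyte, endothelial and fibroblast and pericyte markers each had 4 called higher and 0 lower (of 10, 9 and 9). Their mean levels ran from -2.30 to -2.06, from -2.06 to -1.87 and from -1.58 to -1.32 with DMSO, against -2.07 to -1.93, -1.73 to -1.62 and -1.32 to -1.05 with GW4064. Markers of other nephron segments had 0 higher and 3 lower of 10 (-2.99 to -2.90 against -3.26 to -3.02). The part of these shifts, and of place, in the results below was not tested.

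Glucose enters through Slc2a1, the widespread glucose transporter GLUT-1 in the plasma membrane. Its levels were 3.34, 3.33, 3.05 and 3.36 with DMSO and 2.77, 2.73, 2.68 and 2.84 with GW4064. Every GW4064 array was below every DMSO array, and replicate 3 was the lowest of both groups. Slc2a1 fell by 0.52 ± 0.075 (1.43-fold; adjusted p = 0.00217). Hexokinases then trap glucose as glucose 6-phosphate. Hk1, the general hexokinase, stood at 4.84, 4.64, 4.64 and 4.70 with DMSO and at 4.48, 4.44, 4.33 and 4.50 with GW4064. The groups did not overlap, and Hk1 fell by 0.26 ± 0.059 (adjusted p = 0.0169), with -0.26 and -0.27 on its 2 probes.

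Hk2, the hexokinase most often listed as a HIF target, was at 0.97, 0.96, 0.80 and 1.05 with DMSO and at 0.61, 0.56, 0.74 and 0.90 with GW4064. The highest GW4064 array lay above the lowest DMSO array, and the difference of -0.25 ± 0.084 did not pass (adjusted p = 0.0744). With 1 array left out it passed in 2 of 8 fits, without DMSO replicate 3 (-0.30, adjusted p = 0.0489) or without GW4064 replicate 4 (-0.31, adjusted p = 0.0237). For any gene, leaving out its lowest DMSO array or its highest GW4064 array must move the difference down. A call gained that way, here or below, is therefore not support for a fall. Among the hexokinases outside the 34 genes, Hkdc1, a hexokinase-like protein, fell by 1.01 ± 0.052 (from 1.06 ± 0.07 to 0.04 ± 0.07, mean ± SD, n = 4; adjusted p = 7.96e-06). Hk3 cleared background on 0 of 4 DMSO arrays and on 4 of 4 GW4064 arrays, and so passed the filter through the GW4064 arrays alone. Its call is therefore not used as support. Its GW4064 mean was 1.42-fold above a stand-in for the DMSO side. The stand-in was, per array, the higher of the probe's own signal and the lowest signal of any probe well above background. A probe above that lowest signal need not clear background, so 1.42-fold is not a strict lower limit.

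Phosphofructokinase commits sugar to glycolysis, and its subunits come from Pfkl, Pfkp and Pfkm, named for liver, platelet and muscle. Pfkp was at 1.99, 2.00, 1.86 and 1.91 with DMSO and at 1.47, 1.53, 1.32 and 1.72 with GW4064. Its groups were apart, and it fell by 0.43 ± 0.083 (adjusted p = 0.00787). Pfkm was at 1.01, 0.97, 0.96 and 1.01 with DMSO and at 0.81, 0.89, 0.75 and 0.75 with GW4064. Here too the groups were apart, with a fall of 0.19 ± 0.043 (adjusted p = 0.0177) that did not pass without DMSO replicate 4 (-0.18, adjusted p = 0.0527). Pfkl was at 1.15, 0.95, 0.79 and 0.93 with DMSO and at 0.58, 0.46, 0.13 and 1.03 with GW4064. GW4064 replicate 4 lay among the DMSO arrays while the other GW4064 arrays lay below all of them. The Pfkl difference of -0.41 ± 0.17 did not pass (adjusted p = 0.140). With 1 array left out it passed in 1 of 8 fits, without GW4064 replicate 4 (-0.57, adjusted p = 0.0221). The differences between the 3 subunits were not tested.

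Bifunctional enzymes of the PFKFB family set the level of fructose 2,6-bisphosphate, the strongest activator of phosphofructokinase. Pfkfb3, whose product mainly makes this activator, was at 1.86, 1.74, 1.51 and 1.76 with DMSO and at 1.20, 1.14, 1.00 and 1.23 with GW4064. Pfkfb4, a HIF target of the same family, was at -0.89, -0.89, -1.04 and -0.95 with DMSO and at -0.60, -0.48, -0.64 and -0.57 with GW4064. The groups were apart for both genes, in opposite directions. Pfkfb3 fell by 0.57 ± 0.081 (1.49-fold; adjusted p = 0.00187) and Pfkfb4 rose by 0.37 ± 0.050 (1.29-fold; adjusted p = 0.00150). A dimmer probe of Pfkfb3 gave -0.39 and did not pass in the fit over probes (adjusted p = 0.223), and a further probe of Pfkfb4 was not well above background on any array. Both calls held when any single array was left out. Pfkfb1, the liver form outside the 34 genes, fell by 0.25 ± 0.042 (adjusted p = 0.00493).

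The middle of the upper pathway was less uniform. Gpi1, which turns glucose 6-phosphate into fructose 6-phosphate, was at 6.80, 6.74, 6.45 and 6.65 with DMSO and at 6.32, 6.21, 6.16 and 6.53 with GW4064. GW4064 replicate 4 lay above DMSO replicate 3, so the groups overlapped. Gpi1 fell by 0.36 ± 0.10 (adjusted p = 0.0398), with -0.34 to -0.36 over its 3 probes. In the fit over probes 1 of the 3 was called lower (adjusted p = 0.0371) and the others were not (0.0517 and 0.0523). The call in the fit over genes was lost when any of DMSO replicates 1, 2 and 4 or GW4064 replicates 1, 2 and 3 was left out (adjusted p = 0.0818 to 0.101). The aldolases split fructose 1,6-bisphosphate, and Aldoa (-0.14 ± 0.094, adjusted p = 0.341) and Aldoc (-0.0024 ± 0.068, adjusted p = 0.986) did not pass. After quantile normalization Aldoa was at -0.27 (adjusted p = 0.0190). Tpi1, which interconverts the triose phosphates, was at -0.25 ± 0.11 and did not pass (adjusted p = 0.160). With 1 array left out it passed in 1 of 8 fits, without GW4064 replicate 4 (-0.33, adjusted p = 0.0465).

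**Figure D2:**
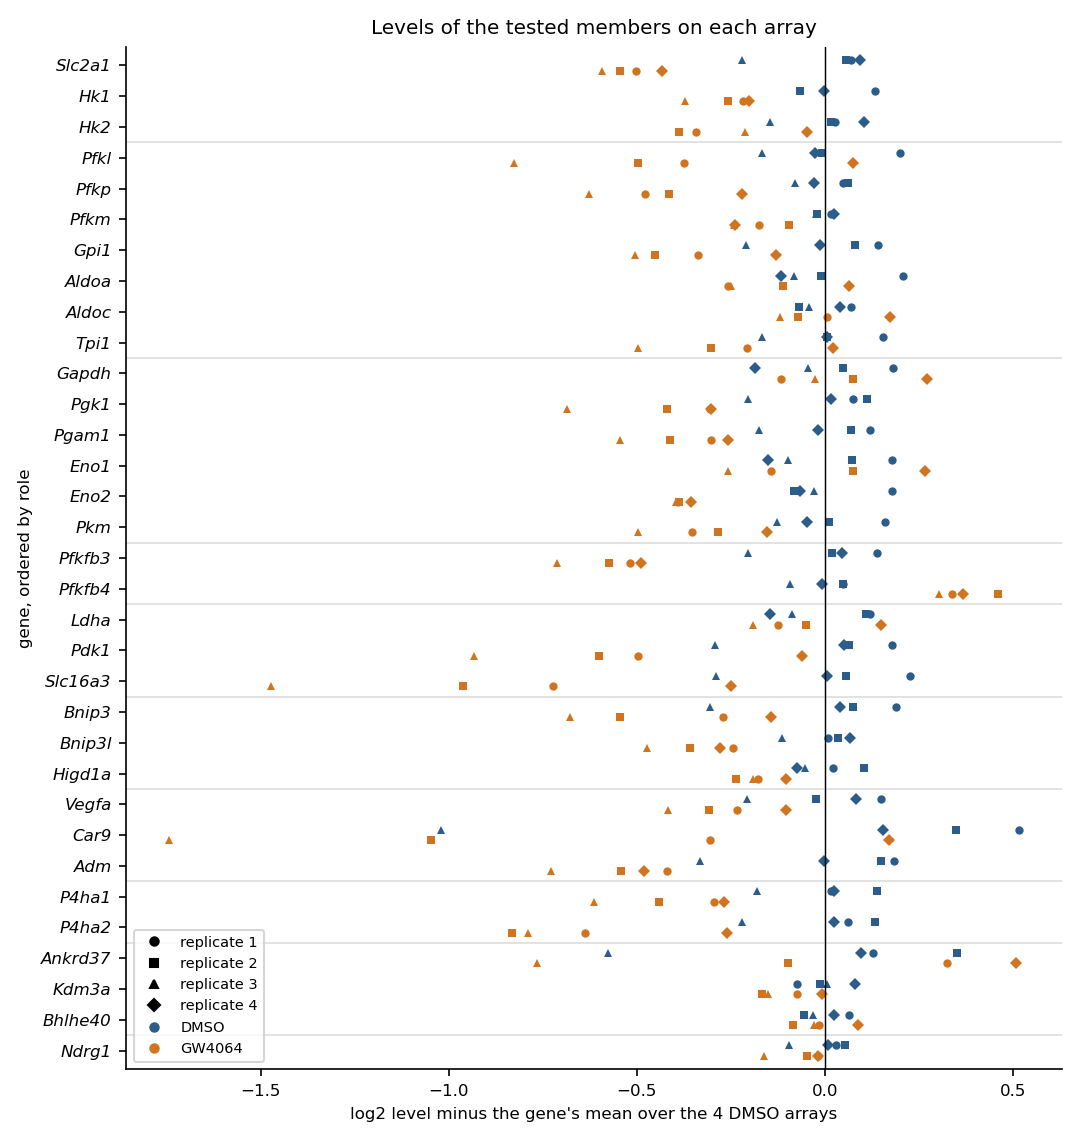
Level of each of the 33 tested genes on each array, as log2 level minus the gene's mean over the 4 DMSO arrays, with genes on the vertical axis grouped by role, blue for DMSO, orange for GW4064 and marker shape for the replicate number. Orange points lie left of the blue points for most genes and right of them for Pfkfb4; triangles (replicate 3) tend to lie leftmost within their colour, and orange diamonds (GW4064 replicate 4) rightmost.

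In the lower, energy-yielding steps 4 of 6 genes fell and 0 rose, where 8.95% of all genes were called lower and 11.8% higher. Pgk1, phosphoglycerate kinase, makes ATP directly and is a classic HIF target. It was at 6.35, 6.39, 6.08 and 6.29 with DMSO and at 5.97, 5.86, 5.59 and 5.98 with GW4064, so that the groups were apart. Pgk1 fell by 0.43 ± 0.10 (1.35-fold; adjusted p = 0.0207), and the adjusted p was 0.0523, 0.0592 and 0.0534 without DMSO replicates 1, 2 and 4. Pgam1, a phosphoglycerate mutase, was at 6.42, 6.37, 6.13 and 6.28 with DMSO and at 6.00, 5.89, 5.75 and 6.04 with GW4064. Its groups were apart too, and it fell by 0.38 ± 0.083 (1.30-fold; adjusted p = 0.0148). Pgam2, the muscle form outside the 34 genes, fell by 0.66 ± 0.11 (from 0.18 ± 0.22 to -0.47 ± 0.08, mean ± SD, n = 4; adjusted p = 0.00352).

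Enolase makes phosphoenolpyruvate, and its isoforms gave different values. Eno2, the isoform best known from neurons and also a HIF target, was at -0.19, -0.45, -0.40 and -0.44 with DMSO and at -0.76, -0.76, -0.76 and -0.73 with GW4064. The 4 GW4064 values were nearly identical and lay below all DMSO values, and Eno2 fell by 0.38 ± 0.060 (1.30-fold; adjusted p = 0.00308). Eno1, the widespread isoform, was at 7.12, 7.02, 6.84 and 6.79 with DMSO and at 6.80, 7.02, 6.68 and 7.21 with GW4064. Its groups overlapped almost fully, and the difference of -0.02 ± 0.12 did not pass (adjusted p = 0.947; 95% interval -0.30 to 0.27). Eno3, the muscle form outside the 34 genes, fell by 0.18 ± 0.051 (adjusted p = 0.0376). The difference between the isoforms was not tested.

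Pkm, pyruvate kinase, closes the pathway. It was at 5.57, 5.42, 5.28 and 5.36 with DMSO and at 5.06, 5.12, 4.91 and 5.25 with GW4064, and the groups were just apart. Pkm fell by 0.32 ± 0.085 (1.25-fold; adjusted p = 0.0304). The call was lost without any of DMSO replicates 1, 2 and 4 or GW4064 replicates 1, 2 and 3 (adjusted p = 0.0587 to 0.0763). Gapdh, the dehydrogenase often used as a reference gene, was at 8.02, 7.89, 7.80 and 7.66 with DMSO and at 7.72, 7.92, 7.81 and 8.11 with GW4064. The groups overlapped, and the difference of 0.05 ± 0.10 did not pass (adjusted p = 0.761). Its sign depended on the scaling, being -0.06 after quantile normalization, and on the probe, with 6 of 7 probes below 0.

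Pyruvate leaves toward lactate or mitochondria. Slc16a3, the lactate exporter MCT-4, was at 3.62, 3.45, 3.10 and 3.40 with DMSO and at 2.67, 2.43, 1.92 and 3.14 with GW4064. GW4064 replicate 4 lay just above DMSO replicate 3, and the GW4064 arrays were widely spread. Slc16a3 fell by 0.85 ± 0.24 (1.81-fold; adjusted p = 0.0371), and its 2 probes gave -0.85 and -0.89. Without DMSO replicates 1, 2 and 4 or GW4064 replicates 1, 2 and 3, each left out alone, the adjusted p was 0.0525 to 0.0908, and without GW4064 replicate 4 it was 0.0107 with a difference of -1.05.

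Ldha, the lactate dehydrogenase subunit that HIF is known to raise, was at 7.29, 7.28, 7.08 and 7.02 with DMSO and at 7.04, 7.12, 6.98 and 7.32 with GW4064. The groups overlapped on this brightest probe, and the difference of -0.05 ± 0.090 did not pass (adjusted p = 0.719). Its 2 dimmer probes were called lower in the fit over probes, as given below. Pdk1, the kinase that shuts pyruvate dehydrogenase, was at -0.08, -0.20, -0.55 and -0.21 with DMSO and at -0.76, -0.86, -1.19 and -0.32 with GW4064. All but GW4064 replicate 4 lay below every DMSO array. The Pdk1 difference of -0.52 ± 0.18 did not pass (adjusted p = 0.0747). With 1 array left out it passed in 1 of 8 fits, without GW4064 replicate 4 (-0.68, adjusted p = 0.0174).

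Several genes had more than 1 probe, and for some of them the value depended on the probe. Of 56 kept probes 54 (96.4%) had a difference below 0, against 46.9% of all kept probes. In the fit over all 24735 kept probes 24 of the 56 were called lower and 1 higher, where 7.01% of all probes were called lower. The 7 Gapdh probes ran from -0.28 on the dimmest to 0.05 on the brightest, and the dimmest was called lower (adjusted p = 0.0402). The 3 Ldha probes ran from -0.37 on the dimmest, through -0.26, to -0.05 on the brightest, and the 2 dimmer ones were called lower (adjusted p = 0.0177 and 0.0492). Tpi1 gave -0.37 on its dimmer probe (adjusted p = 0.0320) and -0.25 on its brighter one. Bright probes of these 3 genes thus gave the smaller differences, whereas the 2 Hk1 probes and the 3 Gpi1 probes gave nearly equal ones. In other genes the brighter probe gave the larger difference, with -0.57 against -0.39 for Pfkfb3, -0.40 against -0.21 for P4ha1, -0.27 against -0.19 for Vegfa and -0.43 against -0.37 for Pfkp. None of the spots was saturated by the scanner's own mark. Gapdh has many near-identical copies in the genome, and which transcripts each probe of Gapdh, Ldha and Tpi1 reads was not checked, so their values are uncertain.

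**Figure D3:**
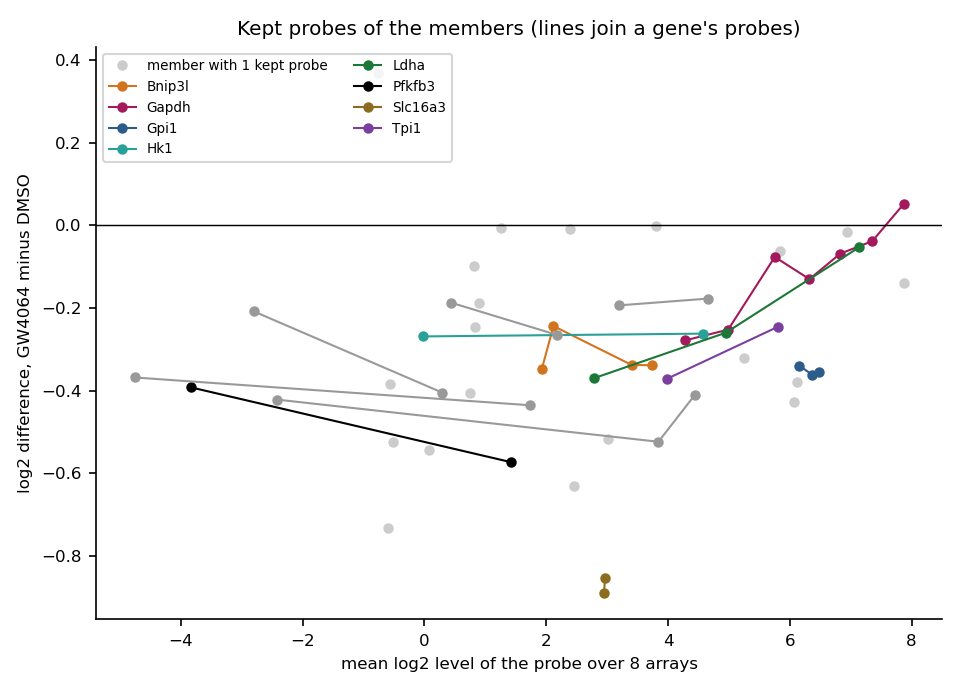
Log2 difference between GW4064 and DMSO of each of the 56 kept probes against the probe's mean log2 level over 8 arrays; lines join probes of 1 gene, named genes have a colour of their own, dark grey lines are the remaining genes with several probes and light grey points are genes with 1 kept probe. The lines of Gapdh, Ldha and Tpi1 climb toward 0 with brightness, those of Hk1 and Gpi1 are flat, and that of Pfkfb3 runs away from 0.

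Among HIF targets outside glycolysis, 2 of 3 mitochondrial genes fell, where 8.95% of all genes were called lower. Bnip3l, a receptor that marks mitochondria for removal by mitophagy, was at 3.92, 3.95, 3.80 and 3.98 with DMSO and at 3.67, 3.56, 3.44 and 3.63 with GW4064. The groups were apart, and Bnip3l fell by 0.34 ± 0.062 (1.26-fold; adjusted p = 0.00670). Each of its 4 probes had a negative difference, and 3 of them were called lower in the fit over probes. Its relative Bnip3 was at 4.84, 4.72, 4.34 and 4.69 with DMSO and at 4.38, 4.10, 3.97 and 4.51 with GW4064. The low DMSO replicate 3 and the high GW4064 replicate 4 overlapped, and the difference of -0.41 ± 0.14 did not pass (adjusted p = 0.0785). With 1 array left out it passed in 2 of 8 fits, without DMSO replicate 3 (-0.51, adjusted p = 0.0325) or GW4064 replicate 4 (-0.50, adjusted p = 0.0465). Higd1a, a small protein of the respiratory chain's assembly, was at 4.76, 4.84, 4.69 and 4.66 with DMSO and at 4.56, 4.50, 4.55 and 4.64 with GW4064. Its groups were barely apart, and its fall of 0.18 ± 0.051 (adjusted p = 0.0426) kept the call only without DMSO replicate 4 or GW4064 replicate 4 among the 8 arrays left out in turn (otherwise adjusted p = 0.0522 to 0.109). In the fit over probes neither of its probes passed (adjusted p = 0.0572 and 0.0744).

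Both alpha subunits of the collagen prolyl hydroxylase measured here fell. This enzyme hydroxylates proline in collagen so that its triple helix is stable. P4ha1 was at 0.52, 0.64, 0.32 and 0.52 with DMSO and at 0.21, 0.06, -0.11 and 0.23 with GW4064. P4ha2 was at 2.83, 2.90, 2.55 and 2.79 with DMSO and at 2.13, 1.94, 1.98 and 2.51 with GW4064. All GW4064 arrays were below all DMSO arrays for both genes, although P4ha2 in GW4064 replicate 4 came close to DMSO replicate 3. P4ha1 fell by 0.40 ± 0.093 (1.32-fold; adjusted p = 0.0178) and P4ha2 by 0.63 ± 0.13 (1.55-fold; adjusted p = 0.0123). A dimmer P4ha1 probe gave -0.21 and was not called.

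Adm, adrenomedullin, a secreted vasodilator peptide, was at 0.53, 0.49, 0.01 and 0.34 with DMSO and at -0.08, -0.20, -0.39 and -0.14 with GW4064. Its groups were apart, and Adm fell by 0.54 ± 0.12 (1.46-fold; adjusted p = 0.0150). Vegfa, the main growth factor of blood vessels, was at 2.47, 2.29, 2.11 and 2.40 with DMSO and at 2.08, 2.01, 1.90 and 2.21 with GW4064. DMSO replicate 3 and GW4064 replicate 4 crossed, and the difference of -0.27 ± 0.092 did not pass (adjusted p = 0.0780). With 1 array left out it passed in 2 of 8 fits, without DMSO replicate 3 (-0.33, adjusted p = 0.0283) or GW4064 replicate 4 (-0.32, adjusted p = 0.0499). Car9, the membrane carbonic anhydrase that is among the most specific HIF targets, varied most. It was at 0.29, 0.12, -1.25 and -0.07 with DMSO and at -0.53, -1.27, -1.97 and -0.06 with GW4064. DMSO replicate 3 lay with the low GW4064 arrays and GW4064 replicate 4 with the high DMSO arrays, so the difference of -0.73 ± 0.47 did not pass (adjusted p = 0.309; 95% interval -1.80 to 0.34).

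The transcription and chromatin genes and Ndrg1 did not pass. Kdm3a, a histone demethylase, had a difference of -0.10 ± 0.051 (adjusted p = 0.207). Bhlhe40, a circadian repressor, was at -0.01 ± 0.049 (adjusted p = 0.910), and Ndrg1, a stress and differentiation gene, at -0.06 ± 0.050 (adjusted p = 0.423). Ankrd37, an ankyrin repeat gene, had levels of 1.40, 1.62, 0.69 and 1.36 with DMSO and of 1.59, 1.17, 0.50 and 1.78 with GW4064. Replicate 3 was lowest in both groups, and its difference of -0.0070 ± 0.30 (adjusted p = 0.991) had a 95% interval from -0.69 to 0.67. The intervals of Kdm3a, Bhlhe40 and Ndrg1 did not reach below -0.22, whereas that of Ankrd37 does not exclude a fall as large as that of Slc2a1.

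Some arrays were the lowest or the highest of their group for many of the 33 genes. DMSO replicate 3 was the lowest DMSO array for 23 genes and the highest for 0, and GW4064 replicate 3 was the lowest GW4064 array for 26. GW4064 replicate 4 was the highest GW4064 array for 28 genes. The mean level over the 33 genes ran from 3.15 (replicate 3) to 3.45 (replicate 1) with DMSO and from 2.84 (replicate 3) to 3.25 (replicate 4) with GW4064, so GW4064 replicate 4 lay above DMSO replicate 3. Without both replicates 3 16 genes were lower and 1 higher, with a median difference of -0.31. These were not the same 16 genes, since Pfkm (adjusted p = 0.0691) and Higd1a (adjusted p = 0.101) lost their call and Bnip3 (adjusted p = 0.0487) and Vegfa (adjusted p = 0.0488) gained one. Leaving out 1 array at a time gave 11 to 22 genes lower, the 22 being without GW4064 replicate 4. What sets these arrays apart was not tested.

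Within slide 1 the difference was below 0 for 32 of 33 genes with a median of -0.39, and within slide 2 for 25 of 33 with a median of -0.24. The median of all genes was 0.01 on slide 1 and 0.02 on slide 2. For 30 genes (90.9%) the difference was higher on slide 2, which held DMSO replicate 3 and GW4064 replicate 4, against 51.2% of all genes. No single gene's difference between slides passed the interaction test. In limma 0 of 14487 genes passed at an adjusted p under 0.05 (543, or 3.75%, at an unadjusted p under 0.05), and the lowest unadjusted p among the 33 genes was 0.0712, for Higd1a. Slc2a1 was at -0.59 on slide 1 and -0.45 on slide 2, Pfkfb3 at -0.63 and -0.52, and Pfkfb4 at 0.35 and 0.39. With 2 arrays per group on a slide, slide 1 alone called 11 of the 33 genes lower and 0 higher. Slide 2 alone called 0 in either direction in limma, where 220 of all genes were called, against 966 on slide 1.

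**Figure D4:**
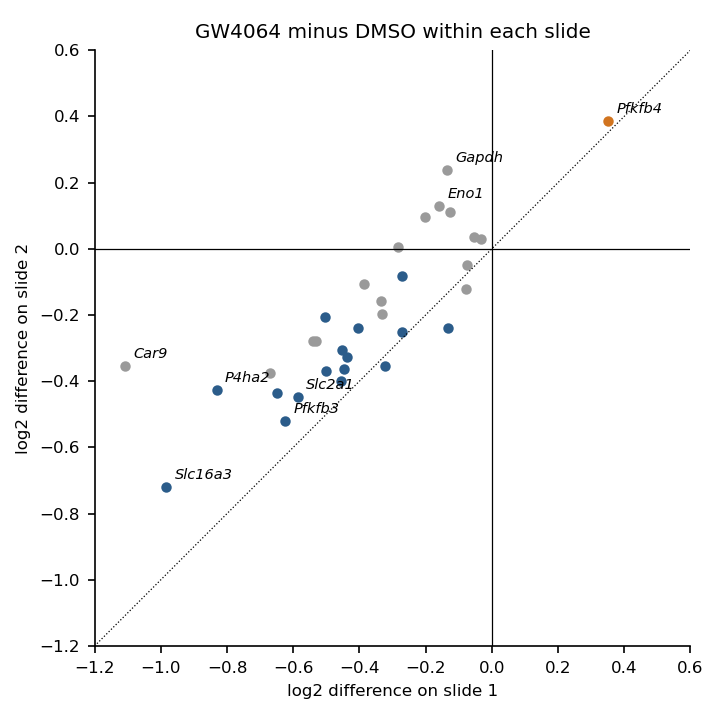
Log2 difference between GW4064 and DMSO on slide 2 against that on slide 1 for the 33 tested genes (2 arrays per group on each slide), blue for genes that fell, orange for Pfkfb4, grey for genes that did not pass, with the line of equality dotted. Of the 33 points 30 lie above the line, and Pfkfb4 lies far from the rest in the upper right.

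The regulators of HIF itself gave 0 higher and 3 lower of 10 measured genes, with a median of -0.06. Among all genes tested 11.8% were called higher and 8.95% lower. Hif3a, an alpha subunit whose splice forms can inhibit HIF and which HIF raises, fell from 0.39 ± 0.27 to -2.02 ± 0.34 (mean ± SD, n = 4; adjusted p = 7.91e-05). Egln3, an oxygen-sensing prolyl hydroxylase that is itself a HIF target, fell from -0.20 ± 0.39 to -1.50 ± 0.52 (2.45-fold; adjusted p = 0.0140). Egln1, the main oxygen sensor of the family, fell from -2.06 ± 0.13 to -2.38 ± 0.13 (1.25-fold; adjusted p = 0.0291). Hif1a (-0.08, adjusted p = 0.425) and Epas1 (0.21, adjusted p = 0.211), which encode the main alpha subunits and are mostly controlled as proteins, did not pass. Protein was not measured.

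A list of 28 further HIF targets had 27 measured, of which 3 rose and 7 fell, with a median of -0.15. Among all genes tested 11.8% were called higher, near the share of the 3 rises here, and 8.95% lower. Of the called targets, the 4 with the smallest p went both ways. Stc2, stanniocalcin 2, rose 1.79-fold (0.84 ± 0.079; adjusted p = 0.000201) and Cxcr4, a chemokine receptor, 1.62-fold (0.69 ± 0.11; adjusted p = 0.00308). Rora, a nuclear receptor, fell 1.56-fold (adjusted p = 0.000588). Ppp1r3c, which targets a phosphatase to glycogen, was 2.47-fold lower with a stand-in for the GW4064 side made as for Hk3, again not a strict limit. It was not well above background on any GW4064 array and passed the filter through the DMSO arrays alone, so its call is not used as support. The other 6 called genes, 5 lower and 1 higher, had differences between -1.91 and 0.27.

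The other glycolytic isoforms, 16 measured of 18, had 1 higher and 4 lower with a median of -0.09. Among all genes tested 11.8% were called higher and 8.95% lower. Hk3 was the isoform called higher, but it passed the filter through the GW4064 arrays alone. Hkdc1, Pgam2, Pfkfb1 and Eno3 were lower, as given with their steps. Gluconeogenesis and glucose reabsorption ran the other way, with 7 of 11 higher, 0 lower and a median of 0.46. Pcx, pyruvate carboxylase, which starts the route from pyruvate back to glucose, rose from 1.28 ± 0.14 to 2.54 ± 0.19 (mean ± SD, n = 4; adjusted p = 0.000108). Fbp2, a fructose bisphosphatase, rose 1.97-fold (adjusted p = 0.000158), G6pc, the glucose 6-phosphatase that releases free glucose, 2.72-fold (adjusted p = 0.00335), and Slc37a4, its transporter partner, 1.38-fold (adjusted p = 0.00394). Pck1, the cytosolic phosphoenolpyruvate carboxykinase often taken as the pacemaker of the pathway, had a difference of -0.06 and did not pass (adjusted p = 0.787). Of 12 genes for pyruvate entry into mitochondria 1 rose and 0 fell, with a median of -0.003. The riser was Pdk4, a kinase of the Pdk1 family (0.17 ± 0.049; adjusted p = 0.0452).

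**Figure D5:**
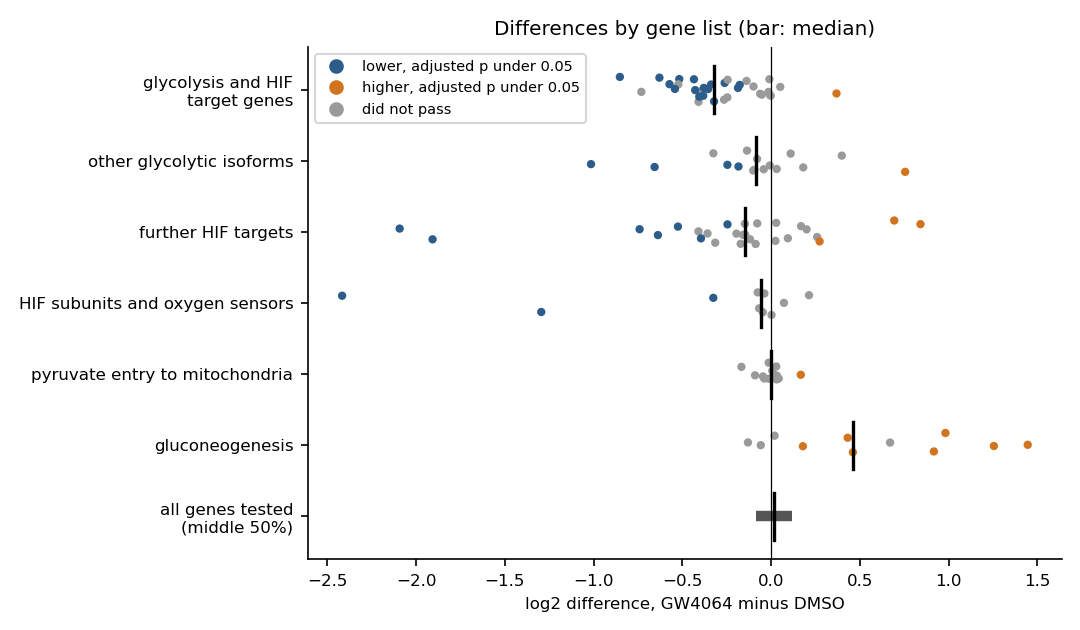
Log2 difference between GW4064 and DMSO of every measured gene in 6 lists (points, with black bars for list medians), and for all 14487 genes the median and the middle 50% from -0.08 to 0.12. The glycolysis and HIF target genes have a median of -0.32 and the gluconeogenesis list one of 0.46, while genes for pyruvate entry into mitochondria have one of -0.003.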

How the data were processed

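The spot intensity deposited by the authors had its background removed by Feature Extraction, version 10.7.3.1 per the file headers, and the submitters' processing notes also name limma. The deposited log2 table of the series, whose scale and centring are not stated, was an alternative. Control spots (1377 of 44397) and spots marked as outliers were left out, and spots of 1 probe were averaged. Log2 signals were scaled by subtracting the 75th percentile of each array, taken over all non-control probes. Probes were then kept if they were well above background on at least 4 of 8 arrays and had an unflagged value on every array. Accessions were matched to RefSeq (GRCm38.p6), which named 27234 of 39429 probes. The brightest kept probe stood for a gene. The groups, 4 against 4 arrays, entered limma (version 3.58.1, R 4.3.3; lmFit, eBayes, Benjamini-Hochberg, threshold 0.05), without covariates. The fit was tested on simulated data. The number of arrays limits the precision.

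The genes and lists were chosen with earlier results of these data known. All 34 genes are accounted for. From each related list up to 4 called genes with the smallest p are named; Eno3, Hif1a, Epas1 and Pck1 were named after their values were seen. Normexp was run on median spot signals, as an alternative, with the local background of 6 spots above 1000 on DMSO replicate 3 set to the array's median. Without this step normexp called 119 of all genes tested and 0 of the 33 genes. The step was added after that fit was seen, because these spots were taken to upset it. Other alternatives concerned scaling, filter, probes, blocks, slides, weights, the variance model and leaving out arrays.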

Additional observations from a re-analysis of the deposited data

Results flagged for a closer look

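In 1 of the 68 groups of 4 arrays examined (levels of the 33 genes and their mean, per treatment; 1.47%), a single array stood far from the remaining 3; chance alone would do so in about 5% of groups. It was Slc2a1 in DMSO replicate 3, at 3.05 against 3.33 to 3.36 on the other DMSO arrays. Without that array the Slc2a1 difference was -0.59 (adjusted p = 0.000281 in limma).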

How the results depend on the processing

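Of 23 alternatives, 2 were chosen after seeing the data (both replicates 3 left out, and the dimmest probe of a gene). Normexp was planned, but its step for spots with a high background was added once the fit without it had been seen. Over the 23 alternatives the 33 genes kept their direction and side of the threshold in 629 of 759 values. They lost a call in 69, gained one in 28 and changed sign in 33. The median difference stayed between -0.39 and -0.24. Of all genes, slide 1 alone called 966 and slide 2 alone 220. Pfkfb4 was not called on either slide alone (0 genes higher), and slide 2 alone called 0 genes lower; each slide has 2 arrays per group. Leaving out 1 array gave 2078 to 2825 genes called. Whether the replicate numbers pair the samples is not known. Deviations of arrays with the same number correlated at -0.13 to 0.19, and 1 of 4 arrays, replicate 3, matched its own number best. These correlations cannot exclude pairing. With the replicate block 17 of the 33 genes were lower and 2324 of all genes were called. Pfkm (adjusted p = 0.0554) and Higd1a (0.114) did not pass in that limma fit, and Bnip3 (0.0267), Vegfa (0.0244) and Pdk1 (0.0353) did. With the slide as a block 13 were lower, and Gpi1, Slc16a3 and Higd1a were lost; the scan split the arrays as the slide did, so it was not run again. Genes that changed sign had differences from -0.14 (Aldoa) to 0.05 (Gapdh) in the comparison of all 8 arrays, and none was called there. Some were called lower in an alternative. Aldoa was called in 2 of the 23 (lowest adjusted p = 0.0190 in limma), Gapdh in 1 (0.0348) and Ldha in 1 (0.0150). Gapdh was at -0.059 after quantile normalization, -0.11 as the mean of its probes, -0.14 on slide 1 alone, -0.060 in the deposited log2 table, -0.28 on its dimmest probe and -0.023 to 0.11 with 1 array left out. On slide 2 alone Ankrd37 was at 0.11, Aldoa at 0.0064, Aldoc at 0.028, Eno1 at 0.13, Ldha at 0.096 and Bhlhe40 at 0.035. With normexp Ankrd37 was at 0.012 and Bhlhe40 at 0.044. Without both replicates 3 Ankrd37 was at 0.053, Aldoc at 0.022 and Eno1 at 0.033. With 1 array left out Ankrd37 ran from -0.20 to 0.25, Aldoc from -0.061 to 0.036, Eno1 from -0.11 to 0.066 and Bhlhe40 from -0.043 to 0.015. The cause was not tested.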
